A study of Mus musculus with 8 samples.

Results

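The glucocorticoid receptor gene Nr3c1, the hormone-activating enzyme gene Hsd11b1 and 8 genes that the receptor induces were examined in femoral shaft bone of mice with and without Girk3. The 10 genes were chosen by name from knowledge of the pathway, with earlier results of these data known. They are 10 of the 49315 gene IDs in the count table. All 10 passed the low-count filter that left 17450 genes for testing. Bulk RNA sequencing was carried out on 4 wild-type (WT) and 4 Girk3-/- (KO) male mice, all labelled C57BL6 and 24 weeks old. Girk3, encoded by Kcnj9, belongs to the potassium channels that G proteins open, and the series title ties its deletion to osteoblast maturation and bone mass. Neither the deleted stretch of the gene is given in the labels, nor how the WT mice were related to the KO mice.

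Glucocorticoids such as corticosterone diffuse into cells and bind the receptor, which is held in the cytoplasm by heat shock chaperones. The hormone-bound receptor moves to the nucleus and binds palindromic glucocorticoid response elements near its target genes. In bone, the hormone acts on osteoblasts, osteocytes and osteoclasts, and long exposure to an excess lowers bone formation. The hormone also rises and falls over the day and with handling, and neither the hour of collection nor a hormone level is given in the sources used here.

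Libraries held between 30087749 and 36553713 counts. Kcnj9 itself was barely detected, at 7, 6, 6 and 23 counts (WT replicates 1 to 4) and 0, 8, 4 and 7 counts (KO replicates 1 to 4). This checks nothing about the genotypes, since the deleted part is not known and the counts are low. The most abundant listed markers of osteoblasts (Col1a1, Col1a2, Spp1), osteocytes (Dmp1, Ptprz1, Mepe) and osteoclasts (Ctsk, Acp5, Mmp9) were present, and so were markers of muscle, blood and marrow. The summed level of 16 muscle markers ranged from 76440 to 143500 CPM (counts scaled to the library's TMM-adjusted total) among WT and from 118600 to 200800 CPM among KO libraries. Its extremes were WT replicate 4 and KO replicate 4, which also had the most distant scores on the leading principal axis (53.5 and -60.5, 33.5% of the variance). They are named below wherever they bear on one of the 10 genes.

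Promoter windows from RefSeq (GRCm38.p6, 250 bases before to 50 bases after a transcription start) were matched by symbol for 7 of the 10 genes, in 14 windows. They were searched on both strands for the palindromic response element (AGAACA, any 3 bases, TGTTCT), for the hexamer AGAACA, which is an arm of the palindrome, and for the core of the metal response element, TGCACNC or TGCGCNC. The exact palindrome occurred in 3 of 32851 windows of the same length (0.00913%), and 1 of these belongs to Sgk1, at 1 of its 6 annotated starts. The hexamer occurred in 19% of all windows, and in 4 of the 14 windows here, 3 of Sgk1 and 1 of Tsc22d3. Both kinds of match are shown to let the palindrome be compared with a lone hexamer. In the Sgk1 window (chr10:21993640-21993939, plus strand) the capitals mark the palindrome, whose first base lies 189 bases before the start. In the Tsc22d3 window (chrX:140600473-140600772, minus strand) they mark the hexamer on the opposite strand (read here as TGTTCT), 185 bases before the start.
Sgk1: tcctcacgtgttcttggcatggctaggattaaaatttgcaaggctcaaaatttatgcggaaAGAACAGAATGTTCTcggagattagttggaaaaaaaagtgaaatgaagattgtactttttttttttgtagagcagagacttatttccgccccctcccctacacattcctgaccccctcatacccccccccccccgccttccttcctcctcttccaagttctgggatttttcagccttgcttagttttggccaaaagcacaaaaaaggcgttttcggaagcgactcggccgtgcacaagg
Tsc22d3: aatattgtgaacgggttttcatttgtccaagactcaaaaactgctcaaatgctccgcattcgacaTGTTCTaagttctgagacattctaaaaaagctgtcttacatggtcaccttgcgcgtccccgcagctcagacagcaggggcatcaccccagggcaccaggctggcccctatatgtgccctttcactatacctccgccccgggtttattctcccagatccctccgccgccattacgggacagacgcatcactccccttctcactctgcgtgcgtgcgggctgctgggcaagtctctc

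The windows of the metallothionein genes are shown because the metal response element is another known input to both genes. Capitals mark TGCACNC or TGCGCNC on either strand, with 3 matches for Mt1 (chr8:94178839-94179138, plus strand) and 4 for Mt2 (chr8:94172368-94172667, plus strand). TGCACNC occurred in 12.6% and TGCGCNC in 15.4% of all windows. The looser core TGCNCNC, which contains both, matched Mt1 at 3 and Mt2 at 6 places, and 7.1% of all windows held at least 3 matches. These matches describe letters and not binding, and no window of Mt1, Mt2, Fkbp5, Klf9 or Hsd11b1 held the AGAACA hexamer.
Mt1: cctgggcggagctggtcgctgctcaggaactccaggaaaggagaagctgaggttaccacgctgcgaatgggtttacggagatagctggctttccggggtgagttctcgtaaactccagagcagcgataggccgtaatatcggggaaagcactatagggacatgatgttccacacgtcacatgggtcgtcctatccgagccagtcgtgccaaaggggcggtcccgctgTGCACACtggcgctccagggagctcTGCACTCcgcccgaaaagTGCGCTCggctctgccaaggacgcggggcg
Mt2: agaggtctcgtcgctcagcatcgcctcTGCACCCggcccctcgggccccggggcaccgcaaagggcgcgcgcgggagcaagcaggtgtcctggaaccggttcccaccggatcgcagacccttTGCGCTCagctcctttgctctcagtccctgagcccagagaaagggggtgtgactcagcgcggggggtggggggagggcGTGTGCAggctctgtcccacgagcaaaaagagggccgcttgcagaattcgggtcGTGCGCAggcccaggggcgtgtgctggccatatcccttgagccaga

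No gene of the 10 passed the test between genotypes, and for every one of them the WT and KO libraries overlapped. By the quasi-likelihood test of edgeR, with Benjamini-Hochberg adjustment over all genes, 0 of 10 had an adjusted p under 0.05, where 0.0115% of all tested genes did (0.00573% higher and 0.00573% lower in KO). None had an unadjusted p under 0.05, against 18.2% of all tested genes. DESeq2 and limma-voom also called 0 of 10, against 6.45% (3.9% higher, 2.55% lower) and 4.02% (2.41% higher, 1.61% lower) of all genes. Groups that did not overlap were found for 0 of 10, against 13.1% of all genes (7.34% higher, 5.77% lower). Of the 10 log2 fold changes 8 were positive and 2 negative, with a median of 0.24, beside -0.01 over all tested genes, of which 48.6% were positive and 51.4% negative. The members were described by these counts only, and no test of the list was made.

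**Figure D1:**
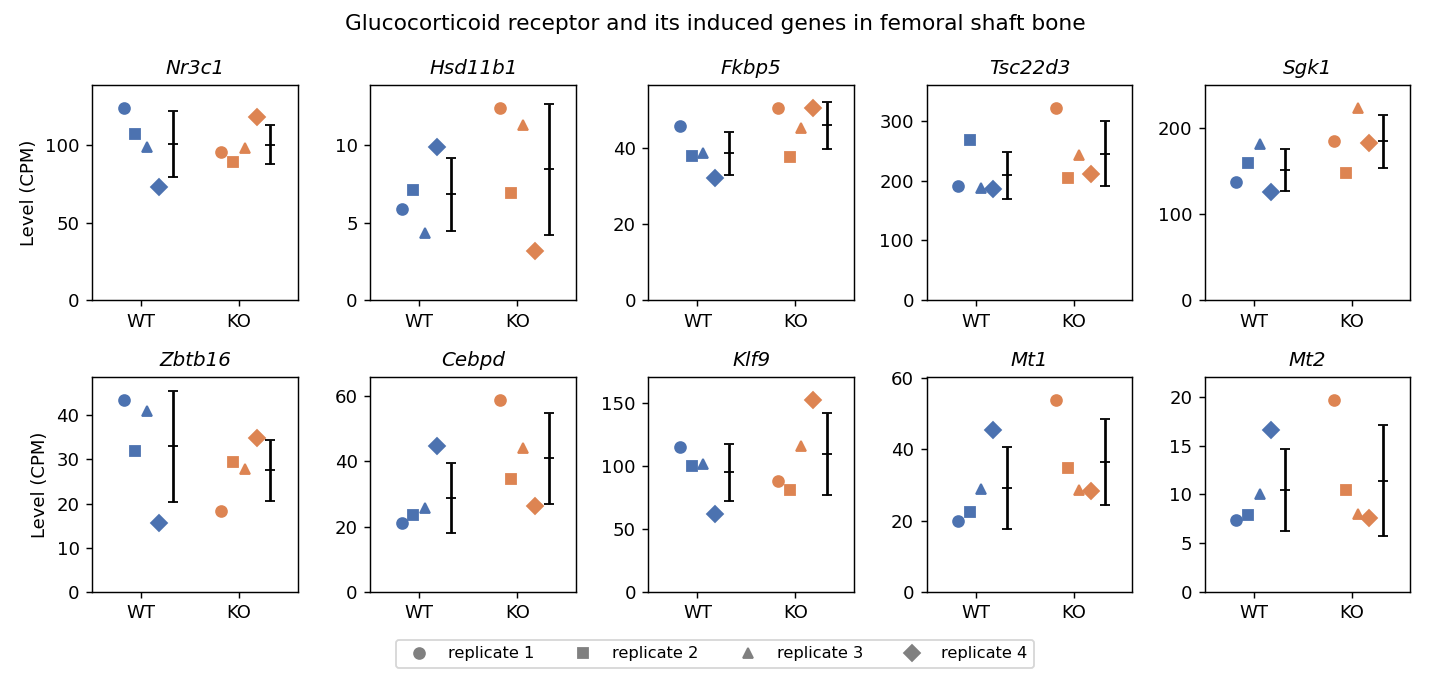
Level of each gene in CPM (vertical axes start at 0) in 4 WT libraries (blue) and 4 KO libraries (orange), with replicates by symbol and black bars for the mean and SD. The groups overlap in all 10 panels, and replicate 4 of WT is the lowest WT library for Nr3c1, Fkbp5, Tsc22d3, Sgk1, Zbtb16 and Klf9 and the highest for Hsd11b1, Cebpd, Mt1 and Mt2.

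Nr3c1 encodes the glucocorticoid receptor (ENSMUSG00000024431, chromosome 18, 39410545 to 39519421, minus strand, GRCm38). It was at 124, 107, 98.6 and 73.0 CPM in WT replicates 1 to 4 and at 95.5, 88.9, 98.3 and 118 CPM in KO replicates 1 to 4. WT replicates 1 and 4 were the highest and the lowest of all 8 libraries, and the KO libraries lay between them. The means were 101 ± 21.3 (WT) and 100.2 ± 12.6 CPM (KO; SD, n = 4 each), with a log2 fold change of -0.01 (SE 0.17, 95% interval -0.38 to 0.37, edgeR adjusted p = 0.989). A change of receptor transcript beyond 1.29-fold upward or to less than 0.768 of the WT level lies outside this interval.

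Hsd11b1 encodes the enzyme that regenerates active corticosterone from its inert 11-keto form inside cells (ENSMUSG00000016194, chromosome 1, 193221634 to 193264075, minus strand). Its levels were 5.89, 7.11, 4.35 and 9.89 CPM in WT and 12.4, 6.91, 11.3 and 3.18 CPM in KO, from 84 to 426 counts a library. KO replicates 1 and 3 were above every WT library and KO replicate 4 was below every one. The log2 fold change was 0.31 (SE 0.39, 95% interval -0.56 to 1.17, edgeR adjusted p = 0.731), the widest interval of the 10 genes. Without KO replicate 1 it was 0.07 and without both replicates 4 it was 0.81 (edgeR adjusted p = 0.963 and 0.0963).

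Fkbp5 encodes a co-chaperone that lowers the receptor's affinity for hormone and so closes a feedback loop (ENSMUSG00000024222, chromosome 17, 28399094 to 28517527, minus strand). It was at 45.7, 37.8, 38.8 and 32.0 CPM in WT and at 50.5, 37.6, 45.1 and 50.4 CPM in KO. KO replicates 1 and 4 exceeded every WT library, KO replicate 3 was just under WT replicate 1 and KO replicate 2 was among the WT values. Its log2 fold change was 0.25 (SE 0.14, 95% interval -0.06 to 0.56, edgeR adjusted p = 0.379), and was 0.17 without WT replicate 4 and 0.34 without WT replicate 1. Among the 10 genes it had the smallest SE, and its levels varied by 14.6% (coefficient of variation) in WT and 13.3% in KO, near the medians of 13.99% and 14.998% over 11517 genes with a mean of at least 5 CPM.

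Tsc22d3 encodes GILZ, a leucine zipper protein that carries part of the anti-inflammatory action of the hormone (ENSMUSG00000031431, chromosome X, 140539528 to 140600659, minus strand). It was at 192, 269, 189 and 187 CPM in WT and at 322, 204, 244 and 212 CPM in KO. WT replicates 1, 3 and 4 lay below every KO library, and the groups overlapped through WT replicate 2. The log2 fold change was 0.23 (SE 0.19, 95% interval -0.19 to 0.65, edgeR adjusted p = 0.564). It was 0.38 without WT replicate 2 and 0.07 without KO replicate 1, and passed in neither (edgeR adjusted p = 0.416 and 0.885).

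Sgk1 encodes a kinase that regulates ion channels and cell survival (ENSMUSG00000019970, chromosome 10, 21882184 to 21999903, plus strand). Its levels were 137, 159, 182 and 126 CPM in WT and 185, 148, 223 and 182 CPM in KO. KO replicates 1, 3 and 4 lay above every WT library, although KO replicate 4 exceeded WT replicate 3 only narrowly, and KO replicate 2 lay within the WT range. The log2 fold change was 0.29 (SE 0.17, 95% interval -0.08 to 0.66, edgeR adjusted p = 0.393), and was 0.19 without KO replicate 3 and 0.39 without WT replicate 3. The counts are for the whole gene, so the start that carries the palindrome shown above was not measured by itself.

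Cebpd encodes C/EBP-delta, a transcription factor of the acute phase response and of early fat cell differentiation (ENSMUSG00000071637, chromosome 16, 15887286 to 15891031, plus strand). It was at 21.1, 23.5, 25.6 and 44.6 CPM in WT and at 58.9, 34.6, 44.1 and 26.2 CPM in KO. KO replicates 1 to 3 exceeded WT replicates 1 to 3, while WT replicate 4 was the second highest of all libraries and KO replicate 4 lay just above WT replicate 3. Its log2 fold change of 0.51 (SE 0.29, 95% interval -0.12 to 1.14, edgeR adjusted p = 0.379) was the largest of the 10. Cebpd was the 1 gene of the 10 that passed under any alternative. It was called, higher in KO, without both replicates 4 (0.97, edgeR adjusted p = 0.0375, with 2.62% of all genes called), with a muscle score as covariate (0.84, 0.0295, 5.65%) and with a marrow score as covariate (0.59, 0.0218, 7.92%). Single libraries moved it both ways, to 0.28 without KO replicate 1 and to 0.80 without WT replicate 4 (edgeR adjusted p = 0.687 and 0.156). Cebpd shares 562 exonic bases with Spidr on the opposite strand, whose counts (125 to 419 a library) could not be told apart from those of Cebpd there if strand was not used. Adipocyte markers, whose cells also use Cebpd, summed to 1315 to 1994 CPM in WT against 1789 to 2651 CPM in KO (9 of 9 present, all 9 with a positive fold change, exact permutation p = 0.0571). Car3, which muscle also expresses, made up 65.3% to 83.2% of that sum, and the other 8 markers summed to 285 to 378 CPM in WT and 348 to 865 CPM in KO (exact permutation p = 0.0857). Cebpd had an r of 0.28 with the whole sum and 0.52 with the sum without Car3 (exact permutation p = 0.486 and 0.172). On deviations from group means, r was -0.20 and 0.32. Without both replicates 4, r was 0.86 with the whole sum and 0.74 with the sum without Car3. Without WT replicate 2 and KO replicate 1, the libraries farthest from its median, r with the sum without Car3 was -0.61. The part of fat cells in the Cebpd values was not tested.

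Klf9 encodes a zinc finger factor that responds to glucocorticoid and thyroid hormone (ENSMUSG00000033863, chromosome 19, 23141226 to 23168134, plus strand). It was at 115, 100.1, 102 and 61.9 CPM in WT and at 87.6, 80.7, 115 and 152 CPM in KO. The lowest library was WT replicate 4 and the highest KO replicate 4, and the other 6 were interleaved. The log2 fold change was 0.20 (SE 0.24, 95% interval -0.33 to 0.73, edgeR adjusted p = 0.710), and was 0.04 without WT replicate 4 and 0.000363 without KO replicate 4. It turned to -0.16 without both replicates 4 and to -0.09 with the muscle score as covariate.

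Zbtb16 encodes PLZF, a zinc finger repressor that is induced strongly by glucocorticoid in many cells and promotes osteoblast differentiation in culture (ENSMUSG00000066687, chromosome 9, 48654297 to 48836222, minus strand). Its levels were 43.5, 31.9, 40.9 and 15.5 CPM in WT and 18.3, 29.3, 27.8 and 34.97 CPM in KO. WT replicates 1 and 3 were the highest libraries, and the lowest were WT replicate 4 and KO replicate 1. It had the lowest fold change of the 10, at -0.26 on the log2 scale (SE 0.30, 95% interval -0.92 to 0.41, edgeR adjusted p = 0.707). The size depended on single libraries, with -0.50 without WT replicate 4, -0.09 without WT replicate 1 and -0.63 without both replicates 4 (edgeR adjusted p = 0.240, 0.922 and 0.0885).

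Mt1 and Mt2 encode metallothioneins, small cysteine-rich proteins that bind zinc and copper, and lie side by side on chromosome 8 (Mt1, ENSMUSG00000031765, 94179082 to 94180327; Mt2, ENSMUSG00000031762, 94172664 to 94173568). Mt1 was at 20.0, 22.3, 28.8 and 45.3 CPM in WT and at 53.9, 34.8, 28.5 and 28.3 CPM in KO. Mt2 was at 7.36, 7.87, 10.02 and 16.6 CPM in WT and at 19.7, 10.4, 7.998 and 7.54 CPM in KO. For both genes the highest libraries were KO replicate 1 and WT replicate 4. The log2 fold changes were 0.32 (SE 0.28, 95% interval -0.31 to 0.95, edgeR adjusted p = 0.603) for Mt1 and 0.12 (SE 0.35, 95% interval -0.65 to 0.90, edgeR adjusted p = 0.890) for Mt2. Single libraries moved both values. Mt1 was at 0.07 without KO replicate 1 and at 0.61 without WT replicate 4, and Mt2 at -0.27 and 0.44 (edgeR adjusted p between 0.234 and 0.937).

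Both metallothionein genes are short, and in this comparison fold changes moved with exon length. Genes in the lowest decile of exon length, where Mt2 falls, had a median log2 fold change of 0.21, those in the second decile, with Mt1, 0.20, and those in the tenth, with Fkbp5, -0.19. With the length trend of each library removed, Mt1 was at 0.18, Mt2 at -0.01 and Fkbp5 at 0.42, and none passed (edgeR adjusted p = 0.782, 0.990 and 0.210). The longest identical run between annotated Mt1 and Mt2 transcripts is 20 bases. Mt2 shares 432 of its 588 exonic bases with Gm45774 on the opposite strand, which had 33 to 158 counts a library, so the level of Mt2 is uncertain.

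**Figure D2:**
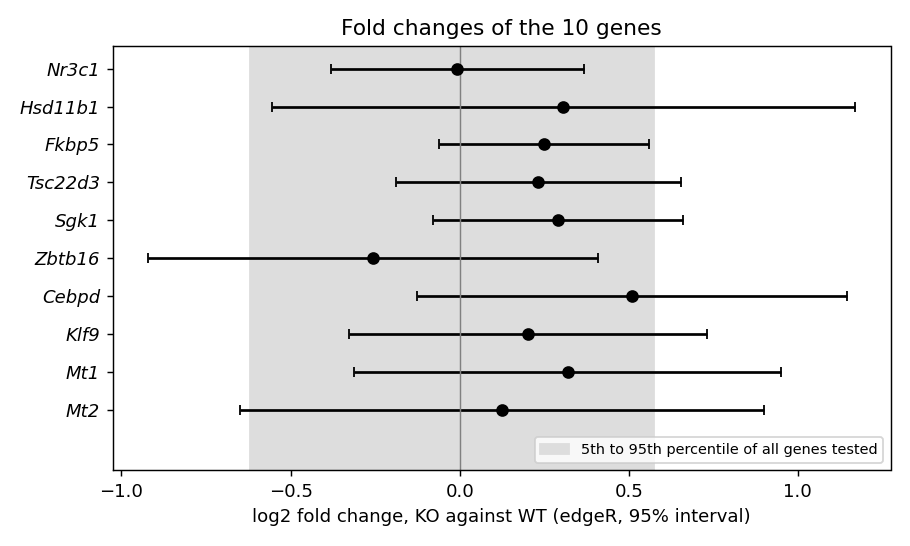
Log2 fold change of KO against WT for each gene (horizontal axis, edgeR), with points for the estimate and bars for its 95% interval. All 10 intervals include 0, and the grey band marks the 5th to 95th percentile over all tested genes, -0.62 to 0.57.

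Per kilobase of annotated exon, Tsc22d3 was the most abundant of the 10 transcripts and Hsd11b1 the least. WT levels were 48.2 ± 9.24 CPM per kilobase for Tsc22d3 and 30.8 ± 5.05 for Sgk1, followed by Mt1 (23.4 ± 9.17), Klf9 (19.7 ± 4.77) and Mt2 (17.8 ± 7.22). Nr3c1 stood at 13.1 ± 2.77 CPM per kilobase, Cebpd at 7.67 ± 2.88, Zbtb16 at 6.24 ± 2.39, Fkbp5 at 4.07 ± 0.595 and Hsd11b1 at 1.602 ± 0.551 (SD, n = 4 each). The KO libraries gave the same order. In WT, the libraries of neighbours in this order overlapped except between Tsc22d3 and Sgk1 and between Fkbp5 and Hsd11b1. In KO, Cebpd and Zbtb16 did not overlap either. The length is that of all annotated exons joined, which understates genes with many unused exons. The place of Mt2 in the order is uncertain, since 432 of its 588 exonic bases are shared with Gm45774.

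Covariation from mouse to mouse was measured for the 45 pairs of the 10 genes by Pearson's r of log2 CPM over the 8 libraries. After adjustment over the 45 pairs 2 passed, both of them positive, and on deviations from the group means 0 passed. Deviations were reordered within groups only, which leaves fewer orderings and a higher smallest p. Mt1 with Mt2 was at that smallest p (r on deviations 0.98, exact permutation p = 0.00174, adjusted 0.0781). For Cebpd with Mt1, r on deviations was 0.87 (exact permutation p = 0.0156, adjusted 0.111). An r of at least 0.7 was found for 17.8% of the pairs and one of -0.7 or lower for 15.6%, beside 9.59% and 8.92% of all pairs among 11517 genes with a mean of at least 5 CPM. Strong relations of both signs were thus frequent over all genes in these libraries. Mt1 and Mt2 varied together (r = 0.94, exact permutation p = 0.000372, adjusted 0.0167; Spearman's rho = 0.98, p = 0.000397, adjusted 0.0179). Cebpd followed Mt1 (r = 0.89, exact permutation p = 0.00208, adjusted 0.0469; rho = 0.88, p = 0.00724, adjusted 0.0652). Both relations leaned on the highest libraries, since without WT replicate 4 and KO replicate 1 r was 0.74 and 0.69 (exact permutation p = 0.0875 and 0.133). In that form of the test, with the 2 libraries farthest from the median left out for each pair, 0 of 45 passed adjustment. Its 6 libraries also allow fewer orderings, so this count does not show that the relations were lost.

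Of the pairs that missed the threshold, Zbtb16 went against Cebpd (r = -0.87, exact permutation p = 0.00382, adjusted 0.0573; rho = -0.90, adjusted 0.0652), and r stayed at -0.82 without WT replicate 4 and KO replicate 1. The receptor gene Nr3c1 went with Klf9 (r = 0.89, exact permutation p = 0.00521, adjusted 0.0586; rho = 0.79, adjusted 0.114) and r was 0.87 without WT replicates 1 and 4. Fkbp5, Tsc22d3 and Sgk1 are often used as readouts of receptor activity. Fkbp5 had an r of 0.47 with Tsc22d3, 0.60 with Sgk1, 0.27 with Zbtb16 and 0.74 with Klf9, and Tsc22d3 had one of 0.49 with Sgk1 and 0.06 with Klf9 (adjusted exact permutation p between 0.132 and 0.948). Without WT replicate 4 and KO replicate 1, r between Fkbp5 and Klf9 was 0.92 (exact permutation p = 0.00278, adjusted 0.125). All pairs share the same 8 libraries and their scaling factors.

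**Figure D3:**
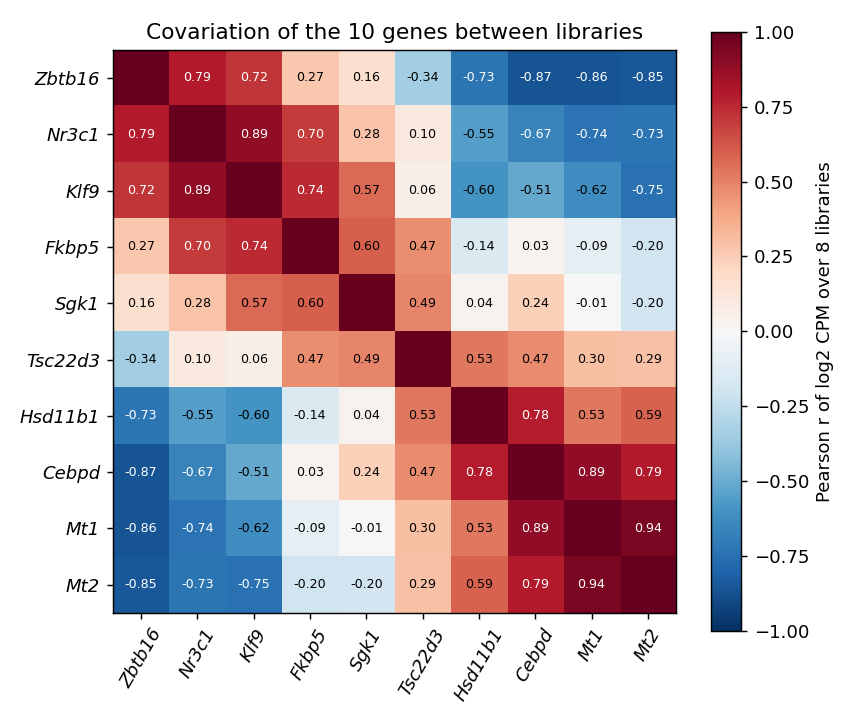
Pearson's r of log2 CPM over 8 libraries for each pair of the 10 genes (both axes list the genes; red positive, blue negative). Nr3c1, Klf9 and Zbtb16 have r from 0.72 to 0.89 with each other and negative r with Cebpd, Mt1 and Mt2. After adjustment the pairs that pass are Mt1 with Mt2 and Cebpd with Mt1.

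Levels were also set against markers of other cell types in the same libraries. Of 130 relations between the 10 genes and the log2 of the summed CPM of 13 marker lists, 4 passed after adjustment over the 130. On deviations from the group means or without 2 libraries, none of the 4 passed (adjusted exact permutation p between 0.0752 and 0.409). Both forms have fewer orderings and a higher smallest p, so missing the threshold there does not show that a relation was lost. For Hsd11b1 with neutrophil, macrophage and endothelial markers, r on deviations was 0.99, 0.99 and -0.99. Each was at the smallest p of that form (exact permutation p = 0.00174). Of the 4, 3 concern Hsd11b1. Its level followed 9 neutrophil markers with r = 0.99 (exact permutation p = 4.96e-05, adjusted 0.00215; rho = 0.98, adjusted 0.0172) and 8 macrophage markers with r = 0.99 (p = 2.48e-05, the smallest that 8 libraries can give, adjusted 0.00215; rho = 1.00, adjusted 0.00645). It ran against 6 endothelial markers with r = -0.99 (exact permutation p = 4.96e-05, adjusted 0.00215; rho = -0.98, adjusted 0.0172). Without the 2 libraries farthest from the median of each marker sum, r was 0.98, 0.96 and -0.98. The macrophage sum was 68.0% to 88.3% Lyz2, which neutrophils express as well. Without Lyz2, r with the other 7 macrophage markers was 0.87 and did not pass (exact permutation p = 0.00536, adjusted 0.139; rho = 0.86, adjusted 0.154). Among genes with a mean of at least 5 CPM, 7 of 11508 others followed the neutrophil sum as closely as Hsd11b1 did (0.0608%). For the whole macrophage sum it was 25 of 11509 (0.217%). Against the endothelial sum, 0 of 11511 had an r as low as that of Hsd11b1.

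The neutrophil sum ranged from 1563 to 5507 CPM in WT and from 795 to 7429 CPM in KO, and the macrophage sum from 452 to 1197 and from 326 to 1388 CPM. All markers of both lists were detected, led by S100a9, Ngp and S100a8 and by Lyz2, Csf1r and C1qa, and the exact permutation test between genotypes gave p = 0.457 and 0.571. By Pearson's r over the 8 libraries, the 5 genes with the pattern most like Hsd11b1 among 11507 were I830127L07Rik, S100a9, S100a8, Lcn2 and Ifitm6, with r from 0.990 to 0.997. In bulk tissue, fewer cells of a type and less RNA per cell cannot be told apart, and the part of marrow content in the Hsd11b1 values was not tested. For comparison, the 5 genes most like Fkbp5 were Naca, the unnamed ENSMUSG00000094114, Ubqln1, Pex2 and Dpt, with r from 0.950 to 0.978.

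Klf9 followed the muscle markers with r = 0.96 (exact permutation p = 0.000645, adjusted 0.0210; rho = 0.93, adjusted 0.0725). Without WT replicate 4 and KO replicate 4, the ends of the muscle range, r was 0.82 (exact permutation p = 0.0444), and 1.1% of 11501 other genes followed the muscle sum as closely. Nr3c1 had an r of 0.81 with the muscle markers, and of 0.28 without the same 2 libraries. With the erythroid markers it had one of -0.81, and of -0.75 without those 2 libraries. Neither relation of Nr3c1 passed (adjusted exact permutation p = 0.193 and 0.161). Cebpd had an r of 0.89 with 8 osteoclast markers and 0.77 with the neutrophil markers, and did not pass (adjusted exact permutation p = 0.1225 and 0.193). Mt1 and Mt2 had an r of 0.86 and 0.76 with the osteoclast markers and of 0.83 and 0.80 with the erythroid markers. None of these passed (adjusted exact permutation p between 0.161 and 0.193). The part of these cell types in the relation of Cebpd to Mt1 was not tested. The muscle sum did not separate the genotypes (exact permutation p = 0.457), and its part in the Klf9 values was not tested beyond the covariate fit given above.

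**Figure D4:**
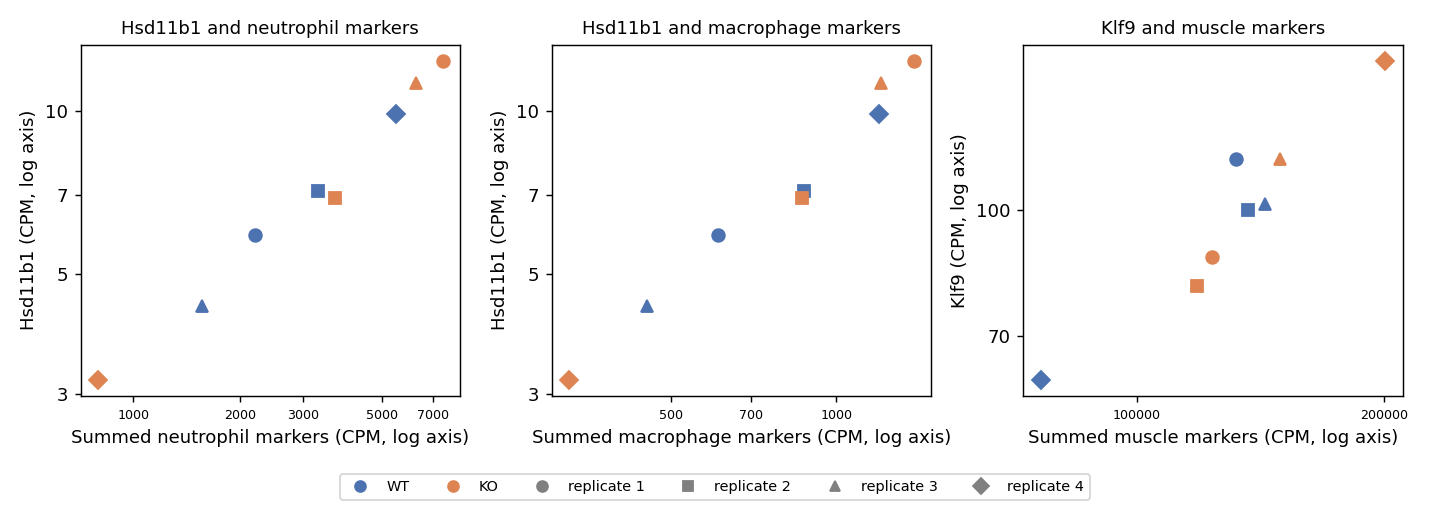
Level of Hsd11b1 against summed neutrophil and macrophage markers and of Klf9 against summed muscle markers (all axes in CPM on a log scale), 1 point per library, blue for WT and orange for KO, with replicates by symbol. Libraries of both genotypes fall along the same rising line in each panel, with r of 0.99, 0.99 and 0.96.

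Other genes of the pathway were examined in lists. Of 22 tested genes of the receptor machinery (mostly chaperones, coactivators and corepressors), 0 passed edgeR's test. By sign, 9 were higher and 13 lower in KO, and the median log2 fold change was -0.08. At an unadjusted p under 0.05, 2 were higher and 6 lower, where 9.59% and 8.59% of all tested genes were. DESeq2 called 3, Ep300, Med1 and Bag1, where it called 6.45% of all genes. From limma-voom came 1 call, Ep300 (adjusted p = 0.0206), against 4.02% of all genes. The coactivator Ep300, an acetyltransferase, was at 78.6, 75.1, 66.6 and 68.5 CPM in WT and at 49.2, 49.8, 48.4 and 56.2 CPM in KO, without overlap (log2 fold change -0.51, SE 0.10, edgeR adjusted p = 0.0769, DESeq2 adjusted p = 0.00141). Med1, the Mediator subunit that nuclear receptors contact, was at 50.8 ± 2.86 and 40.3 ± 1.75 CPM (SD, n = 4 each; log2 fold change -0.33, edgeR adjusted p = 0.119). These are long transcripts, and with the length trend removed Ep300 was at -0.30 and Med1 at -0.19 (edgeR adjusted p = 0.195 and 0.337). Bag1 was higher in KO (log2 fold change 0.40, DESeq2 adjusted p = 0.0346). With the length trend removed Bag1 was at 0.27 (edgeR adjusted p = 0.394). Fkbp4, the co-chaperone that opposes Fkbp5 by promoting receptor transport, was at 144 ± 18.3 (WT) and 188 ± 24.5 CPM (KO; SD, n = 4 each), without overlap (log2 fold change 0.39, edgeR adjusted p = 0.201).

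Of 38 further receptor targets, 0 passed, 24 were higher and 14 lower, with a median of 0.11, and 1 and 6 had an unadjusted p under 0.05 in those directions. DESeq2 and limma-voom called 0 of them. The clock gene Per1, which the receptor induces directly, was at 45.3, 56.1, 42.4 and 76.5 CPM in WT and at 33.3, 40.0, 41.6 and 26.9 CPM in KO. Every KO library was below every WT library, by a narrow margin between KO replicate 3 and WT replicate 3 (log2 fold change -0.64, SE 0.20, edgeR adjusted p = 0.151). Pik3r1, a regulatory subunit of PI3 kinase, was also lower in every KO library, at 108 ± 10.7 and 81.5 ± 8.79 CPM (SD, n = 4 each; log2 fold change -0.40, edgeR adjusted p = 0.149). With the length trend removed Pik3r1 was at -0.23 and Per1 at -0.55 (edgeR adjusted p = 0.446 and 0.232). Per1 and the genes Fkbp5, Tsc22d3 and Sgk1 thus had fold changes of opposite sign, none of which passed.

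The 18 clock genes held no called gene, 11 being higher and 7 lower with a median of 0.15. Dbp, a clock output gene, was at 18.4, 21.3, 22.7 and 17.0 CPM in WT and at 13.7, 18.3, 34.6 and 55.6 CPM in KO, with KO replicates 3 and 4 above all others (log2 fold change 0.62, edgeR adjusted p = 0.409). Nr1d1 was at 97.2 ± 22.1 and 116 ± 51.9 CPM, and Arntl, which peaks in the opposite phase, at 27.8 ± 7.40 and 27.5 ± 3.28 CPM (SD, n = 4 each; edgeR adjusted p = 0.703 and 0.978). Among 17 immediate early genes, 0 passed edgeR's test and the median was 0.21. DESeq2 and limma-voom each called 1 of the 17, where they called 6.45% and 4.02% of all genes. Ier3 was at 7.99 ± 0.493 and 11.4 ± 1.76 CPM, without overlap (edgeR adjusted p = 0.119, DESeq2 adjusted p = 0.0280), and Ier2 at 21.8 ± 9.13 and 33.2 ± 5.39 CPM (edgeR adjusted p = 0.236).

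Bone genes known to answer to glucocorticoid also held no called gene. Of 14 tested genes that the hormone lowers, 6 were higher and 8 lower with a median of -0.01. The Wnt ligand Wnt10b was at 16.5 ± 2.498 (WT) and 11.8 ± 1.63 CPM (KO), without overlap (log2 fold change -0.48, edgeR adjusted p = 0.138), and the cytokine gene Lif at 1.98 ± 0.531 and 1.43 ± 0.326 CPM (SD, n = 4 each; edgeR adjusted p = 0.372). Of 5 genes that it raises, among them the Wnt antagonists Sost (log2 fold change -0.28) and Wif1 (0.16), 2 were higher and 3 lower, with edgeR adjusted p of 0.782 or more. In the metal response list, 0 of 9 passed and the median was -0.23. Its sensor Mtf1 was at 30.9 ± 1.58 and 31.3 ± 2.21 CPM (edgeR adjusted p = 0.950), Gclc of glutathione synthesis at 65.7 ± 18.8 and 41.7 ± 9.16 CPM (0.163), and the zinc importer gene Slc39a10 at 13.5 ± 2.64 and 10.5 ± 0.647 CPM (0.255). Of 11 tested close relatives of the 10 genes, 0 passed. Fkbp4 is given above, and Mt3 was at 8.14 ± 3.59 and 11.4 ± 2.25 CPM (edgeR adjusted p = 0.394).

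**Figure D5:**
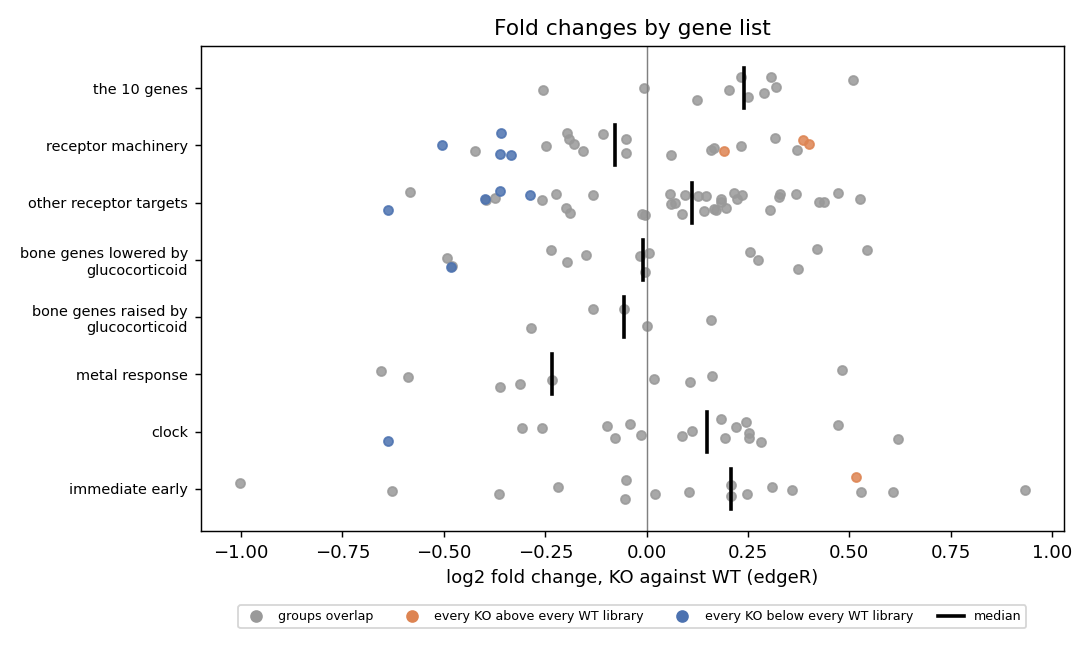
Log2 fold change of KO against WT (horizontal axis, edgeR) for each tested gene of 8 lists, 1 point per gene, with black ticks for list medians and colours for genes whose libraries do not overlap between genotypes. The 10 genes lie between -0.26 and 0.51 with overlapping groups, and their median of 0.24 is beside one of 0.11 for the further receptor targets.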

How the data were processed

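The authors deposited 1 table of raw read counts per Ensembl gene for 8 libraries. Per the submitters' processing notes, the tools were STAR 2.5.2b, Subread 1.5.2 with its featureCounts, and bcl2fastq 2.17, with build mm10. Strand setting, annotation and multi-mapping treatment: not given in the sources used here. Each library was treated as 1 mouse, since 4 animals per genotype are stated. Symbols and exon lengths came from GENCODE M21 (GRCm38), which matched 49056 of 49315 IDs.

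KO and WT were compared over 17450 genes with edgeR 4.0.16 (R 4.3.3, TMM, filterByExpr, robust quasi-likelihood, group as the only term), with Benjamini-Hochberg adjusted p under 0.05 as a call. CPM used TMM-scaled totals and log2 CPM a prior count of 2. Alternatives were DESeq2 1.42.0, limma-voom 3.58.1 with quality weights, other scalings and filters, covariates, removal of the exon length trend (loess, span 0.3), a replicate block and omitted libraries. Relations used exact permutation of the 40320 orderings of 8 libraries. Marker sums were compared over 70 arrangements, with a smallest p of 0.0286. The scripts were tested on simulated data. No library repeated another (chi-square per degree of freedom at least 39.4 for each of 28 pairs).

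The 10 genes and all lists were chosen with earlier results of these data known. Genes were named by rule: the 10, Kcnj9, up to 4 called or else the 2 lowest-p genes of a list, the clock genes Per1, Dbp, Nr1d1 and Arntl, the 3 most abundant markers, and 5 most alike genes for Fkbp5 and the most variable member. Bag1 and Mtf1 were named after their values were seen, and the marker sums without Lyz2 and without Car3 were added after seeing the data.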

Additional observations from a re-analysis of the deposited data

Results flagged for a closer look

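Of 20 sets of 4 libraries (10 genes in 2 genotypes), 1 held a value set far apart from the other 3. Tsc22d3 was at 269.2 CPM in WT replicate 2, against 187 to 192 CPM in the other WT libraries. Chance gives such a value in about 1 of 20 sets (5%).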

How the results depend on the processing

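Across 19 alternatives, 175 of 190 fold changes of the 10 genes kept their sign and their side of the threshold. Cebpd passed in 3 and 12 changed sign. Nr3c1, near 0, did so under the replicate block (0.00832), with the length trend removed (0.13) and without 5 single libraries (-0.14 to 0.11 over the 8 omissions). Klf9 turned to -0.0857 with the muscle score and -0.16 without both replicates 4. Mt2 turned to -0.0122 with the length trend removed and ranged from -0.27 to 0.44 over the omissions, negative without KO replicate 1 or WT replicate 1. The cause was not tested. The 10 genes held 1 called gene with the muscle score, with the marrow score or without both replicates 4, and 0 otherwise. Over all genes, edgeR called 2, against 994 by DESeq2, 701 by limma-voom, 71 without the filter, 1 with the replicate block, 986 and 1382 with the muscle and marrow scores, 4 with the length trend removed, 458 without both replicates 4 and 2 to 4 without single libraries. Library totals without TMM lowered the median of all genes by 0.1. No pairing by replicate number was seen. Same-numbered libraries had correlations of deviations between -0.568 and -0.166. With both replicates 4 at opposite ends of the leading principal axis, these values cannot exclude a pairing. The replicate block changed no call among the 10. Of the 45 pairs, 0 passed on deviations from group means or without 2 libraries, forms with fewer orderings and a higher smallest p. The relation of Hsd11b1 to macrophage markers (r = 0.99) was 0.87 and no longer passed without Lyz2. At 4 mice a group, the intervals leave room for changes of up to 2.25-fold in the least expressed gene, Hsd11b1.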
